A study of Homo sapiens with 14 samples.

Results

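Solute carriers are membrane proteins that move small molecules across the plasma membrane and organelle membranes, and their genes carry the symbol SLC, or SLCO for the organic anion carriers. The members described here are all rows of the deposited gene table whose symbol is SLC with digits and a letter, or SLCO with a digit, with 3 antisense genes left out. They numbered 227 of 13734 genes and fell into 46 families, which were put into 15 classes by the substrate that textbook knowledge gives each family. RNA was measured in MDA-MB-231, an established human breast cancer cell line of the triple-negative kind, in 14 libraries of 7 groups with 2 libraries each. Cells received YAP/TAZ siRNA mix 1 or mix 2 and were harvested 48 h after transfection. Others received BRD siRNA mix A or mix B and were harvested 72 h after transfection, or received a control siRNA. Further cells received JQ1 at 1 µM for 24 h or its solvent DMSO. Harvest times of the control siRNA and DMSO groups are not in the labels, and the knockdowns at their 2 times share 1 control. Nothing in the labels says that the 2 libraries of a group came from separate cultures. P-values therefore measure only the spread between these libraries, which may be technical.

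YAP1 and WWTR1 (TAZ) are transcription co-activators that the Hippo pathway holds back, and TEAD factors bring them to DNA. BRD2 and BRD3 are BET proteins, which bind histones at acetylated sites, and the inhibitor JQ1 blocks that binding. Tumour cells depend on solute carriers for glucose, amino acids, phosphate, metals and vitamins and for the release of lactate. Many carriers work by exchange, in which 1 solute leaves as another enters, and several need a partner chain to reach the membrane.

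The deposited values are RPM (reads scaled to a common library size) after a further scaling by the authors, called scaled RPM here. They rested on 15741695 to 37311326 reads per library, and a single read was worth 0.0276 to 0.0602 scaled RPM. Differences are log2 fold changes of log2(scaled RPM + 1), which understate the change of genes near 1 scaled RPM. A gene is called when its limma p, adjusted by Benjamini-Hochberg over all 13674 genes tested, is under 0.05. Of the 227 members 225 were tested, and SLC44A3 and SLC35F1 stayed under the floor of 1 scaled RPM in 2 libraries. Members with at least 5 scaled RPM in every library numbered 147, members under 5 in every library 39, and members with fewer than 10 reads in some library 25. The targeted genes checked the labels: YAP1 averaged 23.3 with mix 1, 19.9 with mix 2 and 182 scaled RPM with control siRNA. BRD3 averaged 9.83 with mix A, 9.69 with mix B and 31.1 with control siRNA. BRD2 averaged 189 with mix A, 159.7 with mix B and 252 with control siRNA (-0.53), and 937 after JQ1 and 249 in DMSO (1.91). The mesenchymal marker VIM averaged 3418 scaled RPM with control siRNA, and the epithelial marker EPCAM averaged 15.2. Other markers of each kind varied widely there. The luminal keratins KRT8, KRT18 and KRT19 averaged 445, 515 and 273, and the other luminal markers 0.284 (FOXA1) to 52.3 (CLDN4). The mesenchymal and basal markers AXL, CAV1, EGFR, CD44 and LOX averaged 1450, 751, 160, 154 and 18.7. Of 11 luminal epithelial markers tested 9 were higher and 0 lower after YAP/TAZ siRNA, where 43.1% of all genes were higher and 35.9% lower. Their summed level was 2460 to 2599 scaled RPM in the YAP/TAZ siRNA libraries and 1339 to 1408 in the control siRNA libraries. After JQ1 6 of the 11 were higher and 2 lower, where 37.6% of all genes were higher and 36.3% lower. The sum was then 5445 to 5927 scaled RPM, against 1445 in both DMSO libraries, and consisted mostly of the keratins KRT8, KRT18 and KRT19, while EPCAM (-1.29) and SPDEF (-2.11) fell. Of 6 mesenchymal and basal markers 1 was higher and 3 lower after YAP/TAZ siRNA, and 3 were higher and 3 lower after JQ1. After YAP/TAZ siRNA 4 of 4 leukocyte markers and 4 of 4 fibroblast and endothelial markers were also higher, with sums of 123 to 183 and 39.1 to 47.6 scaled RPM, against 67.5 to 69.7 and 13.6 to 17.9 with control siRNA. The part of these marker shifts in the results below was not tested. In bulk RNA a smaller share of cells that express a gene and less RNA of it per cell cannot be told apart.

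Set per kilobase of exon (GENCODE release 29 exon lengths, known for 226 members), the members spanned a wide range in the control siRNA group, with a median of 5.97 and quartiles of 1.12 and 13.6 scaled RPM per kb. SLC25A5, the mitochondrial ADP/ATP carrier ANT2, stood first at 411 scaled RPM per kb. The phosphate importer SLC20A1 followed at 140, the glucose importer SLC2A1 (GLUT1) at 122 and the mitochondrial phosphate carrier SLC25A3 at 116. Next came the amino acid importer SLC38A2 at 99.6, the zinc carrier SLC39A7 at 97.1, the leucine carrier SLC7A5 (LAT1) at 88.1 and its partner chain SLC3A2 at 82.9. The 10 most abundant members per length thus included 3 amino acid carriers, both mitochondrial carriers named above, and SLC16A3 (MCT4), the lactate exporter, at 62.8.

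After YAP/TAZ siRNA 105 members were higher and 73 lower than in the control siRNA group, which is 46.7% and 32.4% of the members tested. The same calls covered 43.1% and 35.9% of all genes, so the share of members called was near the background. Changes of at least 2-fold covered 34 members upward (15.1%, against 9.54% of all genes) and 21 downward (9.33%, against 8.37%). After BRD siRNA 69 members were higher and 91 lower, against 37.6% of all genes in each direction. Of the members 14 moved at least 2-fold each way (6.22%, against 5% of all genes upward and 8.27% downward). After JQ1 96 members were higher and 73 lower than in DMSO, against 37.6% and 36.3% of all genes. In this comparison 24 members were at least 2-fold higher (10.7%, against 8.56%) and 15 at least 2-fold lower (6.67%, against 8.94%). The median member changed by 0.12 after YAP/TAZ siRNA, -0.10 after BRD siRNA and 0.08 after JQ1 on the log2 scale, beside 0.07, -0.00 and 0.01 for all genes. The YAP/TAZ and BRD comparisons share the control siRNA libraries. All treated libraries lay above all controls for 80 of the 225 members tested and below them for 53 after YAP/TAZ siRNA. These counts were 62 and 72 after BRD siRNA and 112 and 90 after JQ1, and were not made over all genes. The 8 largest rises and falls of each comparison were taken only from such members. For those genes the separation is therefore no further result.

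The counts by class are given as a description, with no test of the differences between classes. After YAP/TAZ siRNA, where 43.1% of all genes were higher and 35.9% lower, more members were higher than lower among carriers of organic ions, bile acids and hormones (12 higher and 1 lower of 17, median 0.51), sugars (10 and 3 of 15, median 0.47) and lactate and related carboxylates (6 and 1 of 8, median 0.61). The same held for carriers of sodium, potassium, protons and calcium (9 and 1 of 15, median 0.30). More were lower than higher among mitochondrial carriers (12 higher and 18 lower of 40, median -0.14) and vitamin carriers (1 and 3 of 6, median -0.45). The amino acid and peptide carriers (11 and 14 of 29, median -0.14) and the metal carriers (7 and 12 of 26, median -0.14) depended on the mix or the control. With mix 1 alone the metal carriers had 15 higher and 4 lower and the amino acid carriers 12 and 11, and with DMSO as control the amino acid carriers had 14 and 13. After BRD siRNA, with 37.6% of all genes called in each direction, the amino acid carriers (7 higher and 15 lower, median -0.30), the mitochondrial carriers (11 and 18, median -0.17) and the vitamin carriers (0 and 5, median -0.80) had more falls than rises. The amino acid carriers had 7 higher and 16 lower with mix A alone (median -0.33). With mix B alone they had 8 and 12 (median -0.06), where 35.3% of all genes were higher and 35.5% lower. After JQ1, with 37.6% of all genes higher and 36.3% lower, the sugar carriers (11 higher and 2 lower, median 0.44) and the carriers of choline, carnitine and fatty acids (7 and 1 of 9, median 0.43) had more rises, and the amino acid carriers (8 and 13, median -0.28) more falls.

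**Figure D1:**
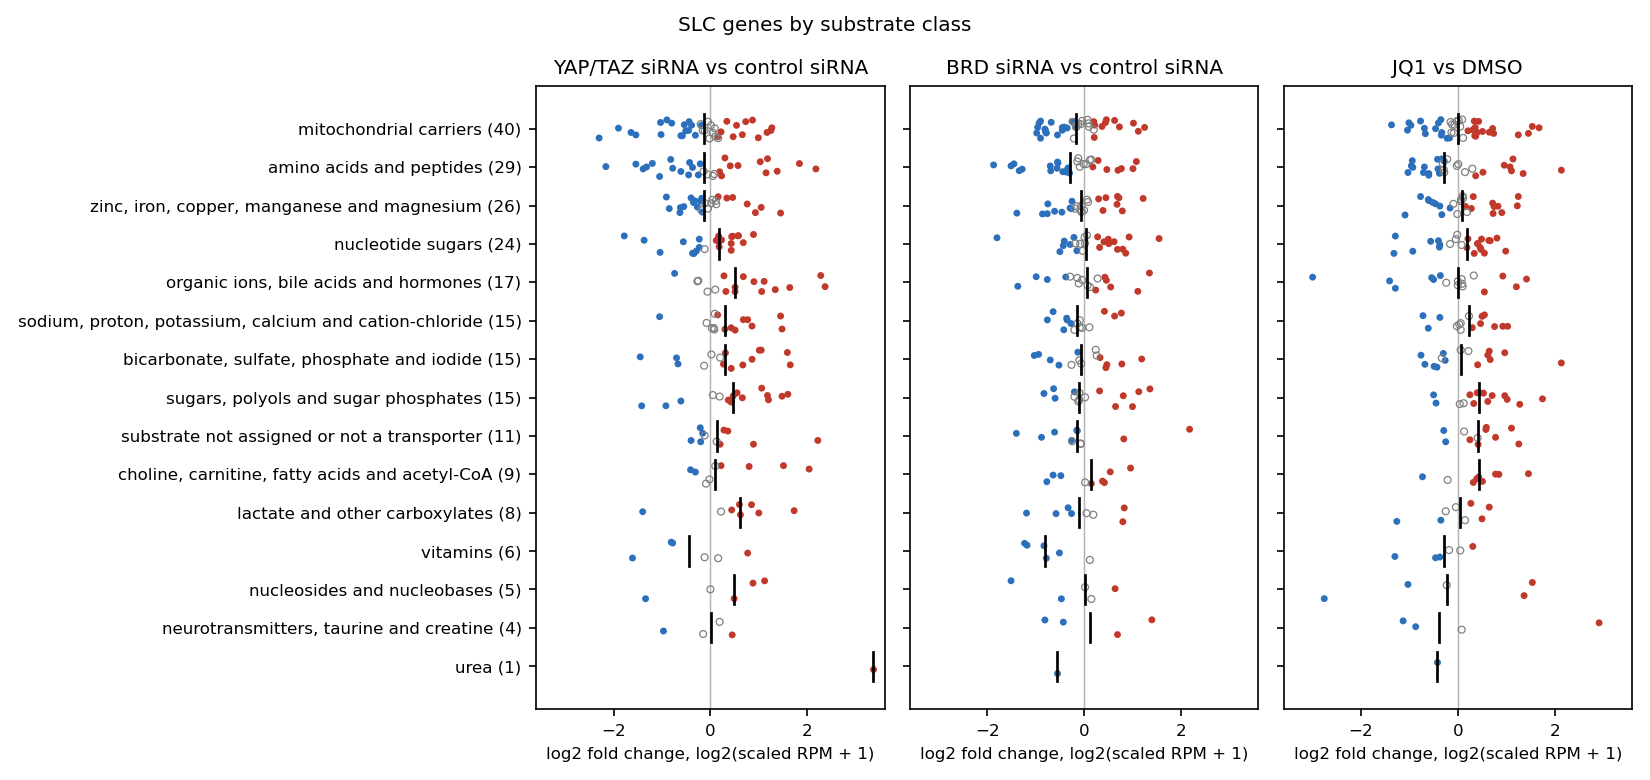
Log2 fold change of each tested SLC gene (1 point a gene) in YAP/TAZ siRNA against control siRNA, BRD siRNA against control siRNA and JQ1 against DMSO, by substrate class, with the number of genes tested in brackets; red points were called higher, blue points called lower, open points not called, and the black bar is the class median. The sugar carriers lie mostly right of 0 after YAP/TAZ siRNA and JQ1, and the vitamin carriers mostly left of 0 after BRD siRNA.

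Among the amino acid carriers, the 2 chains of the leucine exchanger LAT1 fell together after YAP/TAZ siRNA and with BRD siRNA mix A, and were higher after JQ1. SLC7A5, the transport chain, had 187 and 207 scaled RPM with YAP/TAZ siRNA mix 1 and 94.5 and 101 with mix 2, against 390.1 and 418 with control siRNA, a log2 fold change of -1.54 (SE 0.0534, adjusted p = 3.64e-16). SLC3A2 (CD98), the partner chain that SLC7A5, SLC7A6 and SLC7A11 need at the membrane, had 117 and 125 with mix 1 and 73.9 and 76 with mix 2, against 212 and 228 with control siRNA, a change of -1.20 (SE 0.0505, adjusted p = 7.69e-15). All 4 YAP/TAZ siRNA libraries lay below both control libraries for each gene. With BRD siRNA, SLC7A5 had 196 and 198 with mix A and 368 and 405 with mix B, against the same controls (-0.55 (SE 0.0534, adjusted p = 8.58e-09)). The fall came mainly with mix A and the mix B libraries overlapped the controls. SLC3A2 showed the same split, with 123 and 131 with mix A and 218 and 237 with mix B. Its change was -0.79 with mix A alone and 0.05 with mix B alone (adjusted p = 0.473). After JQ1, SLC7A5 had 862 and 885, against 410.0 and 418 in DMSO (1.08 (SE 0.0617, adjusted p = 1.73e-12)). SLC3A2 had 416 in both libraries, against 289.5 and 290.0 (0.52 (SE 0.0583, adjusted p = 7.22e-08)). Both JQ1 libraries lay above both DMSO libraries for each gene. SLC7A5 shares sequence with the copy SLC7A5P2, so its reads could be split between them.

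Because these 2 chains moved the same way as each other on the mean of the mixes and after JQ1, the 250 bases upstream of their RefSeq starts are shown (GRCh38.p14; SLC7A5 at chr16:87869508-87869757, minus strand, and SLC3A2 at chr11:62881449-62881698, plus strand), in lower case, 5′ to 3′ on the gene's strand, with the matched motif in capitals. In SLC7A5 it is the E-box CACGTG, whose first base lies 130 bases before the start, and in SLC3A2 the AP-1 letters TGACTCA, whose first base lies 37 bases before the start.
SLC7A5: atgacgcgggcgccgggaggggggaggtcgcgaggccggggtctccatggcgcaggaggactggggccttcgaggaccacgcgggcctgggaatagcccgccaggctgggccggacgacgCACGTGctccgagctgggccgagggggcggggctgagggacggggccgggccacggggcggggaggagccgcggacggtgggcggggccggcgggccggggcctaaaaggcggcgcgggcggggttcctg
SLC3A2: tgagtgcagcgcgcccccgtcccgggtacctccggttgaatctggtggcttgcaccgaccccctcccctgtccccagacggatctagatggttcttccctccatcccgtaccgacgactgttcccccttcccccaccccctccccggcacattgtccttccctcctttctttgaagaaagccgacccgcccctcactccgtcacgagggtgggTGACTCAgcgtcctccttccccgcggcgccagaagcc
Of the 227 members 184 matched a window in the RefSeq promoter table. Searched on both strands, CACGTG stood in 19 of these 184 windows (10.3%, against 6.49% of 27305 windows of all genes), the AP-1 motif TGANTCA in 9 (4.89%, against 6.6%), the TEAD motif GGAATG in 15 (8.15%, against 11.9%) and the amino acid response motif TGATGNAA in 6 (3.26%, against 3.19%). These matches describe letters only.

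The cationic and cystine carriers went separate ways. SLC7A1 (CAT1), an arginine and lysine importer, was lower in all 3 comparisons. It had 56 and 57.2 with YAP/TAZ mix 1, 24.3 and 26.6 with mix 2, 45.5 and 49.2 with BRD mix A and 25.6 and 25.7 with mix B, against a mean of 101 over both control siRNA libraries (-1.39 (SE 0.0541) and -1.51 (SE 0.0541)). After JQ1 it had 58.9 and 58.5, against 123 and 119 in DMSO (-1.03 (SE 0.0625, adjusted p = 4.53e-12)). No treated library of SLC7A1 reached a control library. Its relative SLC7A2 (CAT2) had 5.95 and 6.26 with YAP/TAZ mix 1 and 7.52 and 6.75 with mix 2, against 36.2 and 30.1 with control siRNA (-2.16 (SE 0.0733, adjusted p = 2.41e-16)), the second largest fall of a member after YAP/TAZ siRNA. After BRD siRNA its direction depended on the mix, at -0.27 with mix A and 0.63 with mix B. SLC7A11 (xCT), which imports cystine in exchange for glutamate, also differed between mixes. It had 168 and 154 with YAP/TAZ mix 1 and 62.8 and 61.9 with mix 2, against 109.6 and 85.6 with control siRNA. With BRD siRNA it had 32.2 and 32.1 with mix A and 136 in both libraries with mix B. Its mean effect was 0.05 (SE 0.0756, adjusted p = 0.559) after YAP/TAZ siRNA. After BRD siRNA it was -0.54 (SE 0.0756, adjusted p = 1.7e-06), the mean of -1.56 with mix A and 0.48 with mix B.

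Among carriers of small neutral amino acids some responded in opposite directions to BRD siRNA and JQ1. SLC1A4 (ASCT1), an alanine and serine exchanger, had 8.7 and 11.3 with YAP/TAZ mix 1, 5.78 and 5.87 with mix 2, 3.03 and 3.63 with BRD mix A and 6.97 and 8.27 with mix B, against 13.1 and 14.6 with control siRNA (-0.78 (SE 0.103) and -1.28 (SE 0.103)). JQ1-treated cells had 23 and 24.9, against 10.5 and 10.1 in DMSO (1.14 (SE 0.119, adjusted p = 2.58e-08)). The glutamine exchanger SLC1A5 (ASCT2) was lower in each comparison, with changes of -0.82 after YAP/TAZ siRNA, -0.69 after BRD siRNA and -0.33 after JQ1 on the log2 scale. It averaged 190.5 scaled RPM after JQ1 and 239.7 in DMSO. SLC38A2 (SNAT2), the sodium-coupled importer that cells raise when amino acids run short, had 948 and 989.5 after JQ1, against 385 and 376 in DMSO (1.35 (SE 0.0649, adjusted p = 1.05e-13)). It had 966 and 956 with BRD mix A and 696 and 669 with mix B, against 535 and 462 with control siRNA (0.70 (SE 0.0562, adjusted p = 3.76e-10)). After YAP/TAZ siRNA it had 839.7 and 784 with mix 1 and 388 and 406 with mix 2. That is above the controls with mix 1 (0.71) and below them with mix 2 (-0.33). SLC43A2 (LAT4), which lets branched-chain amino acids pass without exchange, had 19.7 and 19.9 with YAP/TAZ mix 1 and 38.2 and 35.6 with mix 2, against 4.42 and 6.08 with control siRNA (2.18 (SE 0.118, adjusted p = 4.8e-13)). JQ1 raised it too, to 17.5 and 14, against 2.3 and 3.34 in DMSO (2.14 (SE 0.136, adjusted p = 9.83e-12)). BRD siRNA gave -0.09 (SE 0.118, adjusted p = 0.483). The glycine carrier SLC6A9 (GlyT1) rose after YAP/TAZ siRNA, to 73.3 and 77.4 with mix 1 and 46.9 and 46.7 with mix 2, against 14.4 and 17.5 with control siRNA (1.84 (SE 0.0846, adjusted p = 3.13e-14)). The lysosomal and plasma membrane carrier SLC36A4 (PAT4) was lower in each comparison (-1.05, -1.45 and -0.60 after YAP/TAZ siRNA, BRD siRNA and JQ1). SLC38A10 was higher in each (1.15, 1.01 and 1.11).

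**Figure D2:**
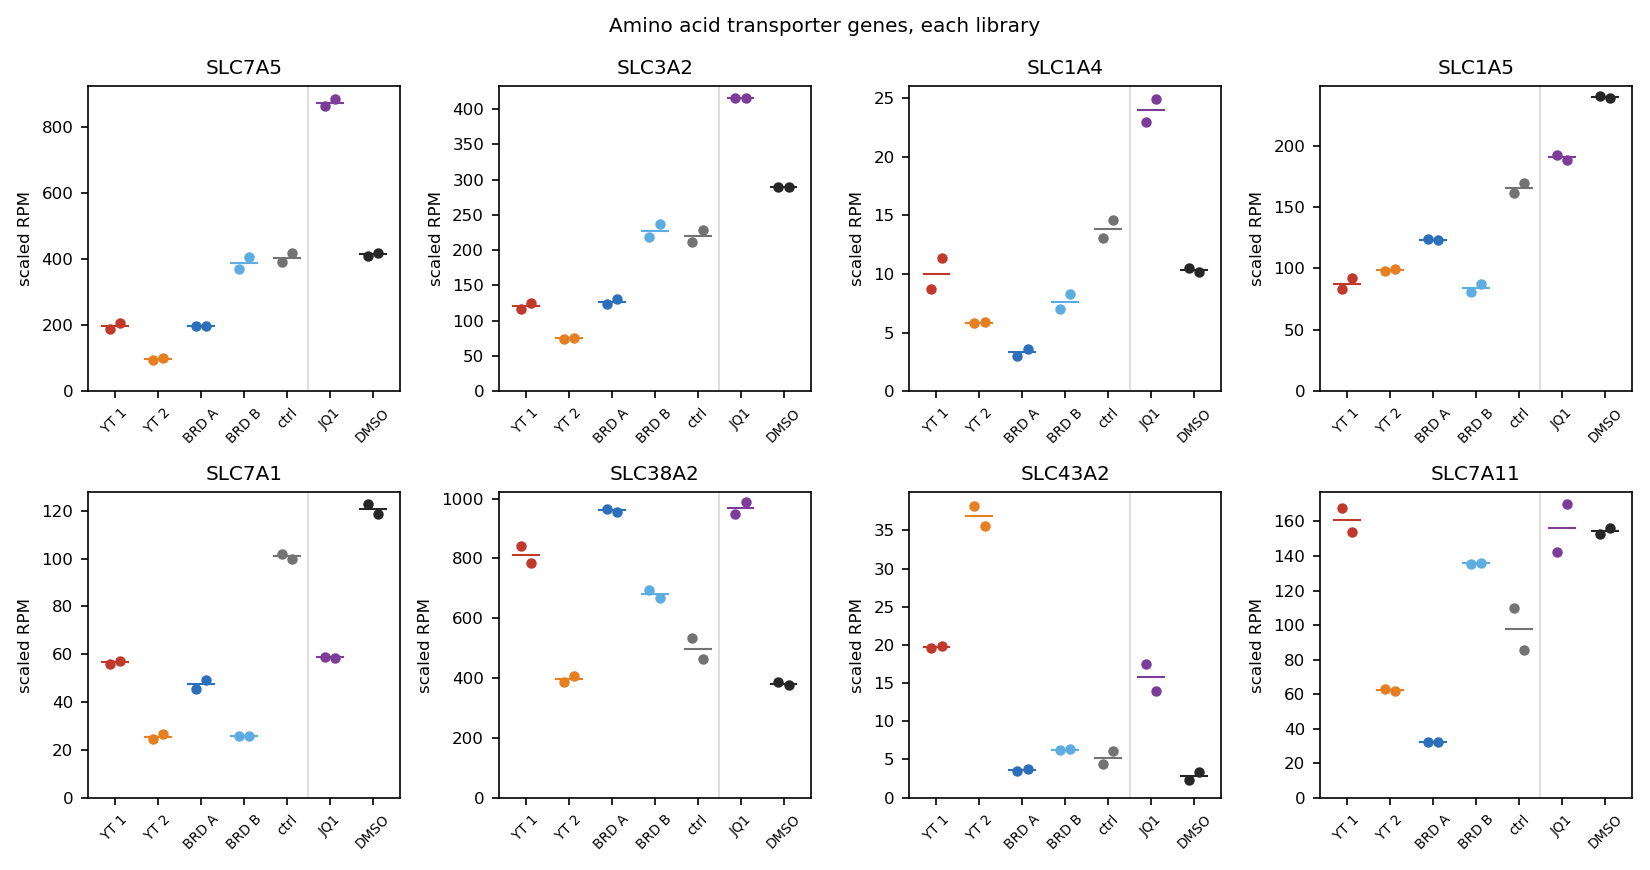
Scaled RPM of 8 amino acid carrier genes in each library (points) with the group mean (line), on linear axes that start at 0; YT 1 and YT 2 are YAP/TAZ siRNA mix 1 and mix 2, BRD A and BRD B are BRD siRNA mix A and mix B, ctrl is control siRNA, and the vertical line parts the siRNA groups from JQ1 and DMSO. SLC7A5 is at 862 and 885 after JQ1 and at 94.5 and 101 with YAP/TAZ mix 2.

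Glucose carriers diverged within the class. SLC2A1 (GLUT1), the main basal glucose importer, had 381 and 416 with YAP/TAZ mix 1 and 159 and 168 with mix 2, against 474 and 495 with control siRNA (-0.92 (SE 0.0515, adjusted p = 7.7e-13)). The fall was -0.28 with mix 1 and -1.56 with mix 2 on the log2 scale. SLC2A3 (GLUT3), a high-affinity glucose importer, had 106 and 101 with mix 1 and 41.6 and 42.6 with mix 2, against 30.9 and 31.6 with control siRNA (1.06 (SE 0.0672, adjusted p = 6.88e-12)). SLC2A3 was thus higher and SLC2A1 lower with each mix, but the larger SLC2A3 rise came with mix 1 and the larger SLC2A1 fall with mix 2. For SLC2A3 the 2 BRD siRNA mixes were called on opposite sides of the controls, and their mean effect was not called. After BRD siRNA SLC2A1 was at 558 and 593 with mix A and 299 and 323 with mix B, on opposite sides of the controls (0.25 and -0.64). After JQ1 it was at 456 and 447, against 434 and 446 in DMSO (0.04 (SE 0.0594, adjusted p = 0.58)). Per length, the control siRNA group held 122 scaled RPM per kb of SLC2A1. An antisense gene overlaps SLC2A1, and whether the counting used strand is unknown, so reads of the pair could be mixed. SLC2A3 has a near-identical relative that could likewise share its reads.

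Myo-inositol and sugar phosphate carriers held some of the widest changes. SLC5A3 (SMIT1), which imports myo-inositol with sodium as cells adjust to osmotic load, had 208 and 189.9 with YAP/TAZ mix 1 and 20.8 and 20.5 with mix 2, against 62.6 and 62.5 with control siRNA. The mixes lay on opposite sides of the controls, and their mean effect was 0.05 (SE 0.0708, adjusted p = 0.523). With BRD siRNA it had 271 and 218 with mix A and 115 and 102 with mix B (1.36 (SE 0.0708, adjusted p = 3.5e-13)). After JQ1 it had 88.2 and 94.4, against 57.3 and 60.8 in DMSO (0.62 (SE 0.0817, adjusted p = 7.47e-07)). SLC37A2, a sugar phosphate and phosphate exchanger of the endoplasmic reticulum, had 417 and 434 with YAP/TAZ mix 1, 367 and 387 with mix 2, 372 and 358 with BRD mix A and 230.4 and 229.9 with mix B, against 126 and 138 with control siRNA (1.60 (SE 0.0525) and 1.13 (SE 0.0525)). Every treated library lay above both controls. JQ1 libraries had 96 and 92, against 54.2 and 60.4 in DMSO (0.71 (SE 0.0606, adjusted p = 1.18e-09)). SLC37A4, the glucose-6-phosphate carrier that feeds glucose release, was lower in each comparison (-1.42, -0.83 and -0.50). SLC2A13, a proton-coupled myo-inositol importer, rose after JQ1 to 30.2 and 29.4, against 11.6 and 11.8 in DMSO (1.28 (SE 0.0877, adjusted p = 3.05e-11)). SLC2A11, a sugar carrier of the GLUT family, was higher in each comparison (1.18, 1.00 and 1.75).

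Lactate carriers split by member. SLC16A3 (MCT4), which exports lactate from glycolytic cells, had 651 and 709 with YAP/TAZ mix 1 and 367 and 357 with mix 2, against 293 and 357 with control siRNA (0.62 (SE 0.0632, adjusted p = 1.58e-08)). BRD siRNA gave 717 and 698 with mix A and 451 and 482 with mix B (0.83 (SE 0.0632, adjusted p = 1.75e-10)). JQ1 gave 437 and 412, against 347 and 359 in DMSO (0.27 (SE 0.073, adjusted p = 0.00253)). SLC16A7 (MCT2), a high-affinity pyruvate and lactate importer, was lower throughout. It had 30.1 and 26.4 with YAP/TAZ mix 1, 6.79 and 6.88 with mix 2, 19.2 and 21.2 with BRD mix A and 13.2 and 13.6 with mix B, against 41.1 and 36.7 with control siRNA (-1.40 (SE 0.0768) and -1.19 (SE 0.0768)). JQ1 gave 20.9 and 23.8, against 55.6 and 53.7 in DMSO (-1.26 (SE 0.0886, adjusted p = 4.95e-11)). No treated library of SLC16A7 reached its controls. SLC16A6 (MCT7) rose with mix 2 alone, to 17.6 and 17.1, where mix 1 had 1.25 and 1.11 and control siRNA 1.28 and 0.602. BSG (basigin), the partner chain that MCT4 needs at the membrane, was higher in each comparison (0.68, 1.03 and 0.78 after YAP/TAZ siRNA, BRD siRNA and JQ1). EMB (embigin), the usual partner of MCT2, was lower in each (-0.51, -1.38 and -0.65). TXNIP, an arrestin that removes GLUT1 from the membrane, averaged 1201 with BRD mix A, 1856 with mix B and 335 with control siRNA (2.15). It averaged 1443 after JQ1 and 283 in DMSO (2.35). On the list of 25 tested partner and SLC-like carrier genes to which BSG, EMB and TXNIP belong, 12 were higher and 6 lower after YAP/TAZ siRNA, 11 and 5 after BRD siRNA, and 13 and 7 after JQ1. These are 48% and 24%, 44% and 20%, and 52% and 28% of the list, beside 43.1% and 35.9%, 37.6% and 37.6%, and 37.6% and 36.3% of all genes.

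**Figure D3:**
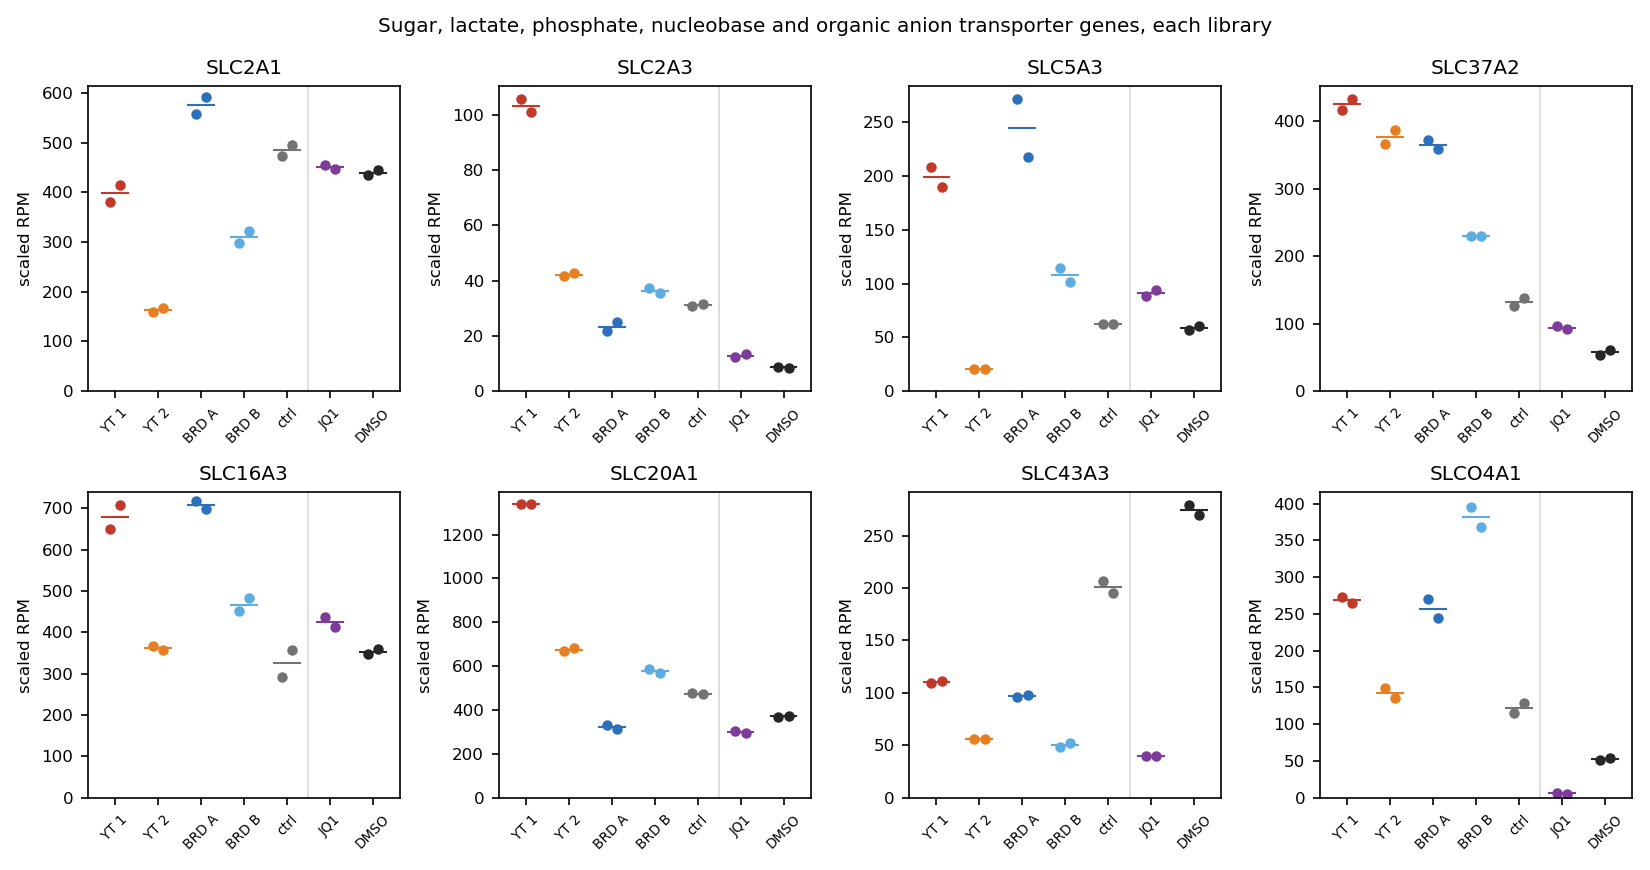
Scaled RPM of 8 carrier genes of sugars, lactate, phosphate, nucleobases and organic anions in each library (points) with the group mean (line), on linear axes that start at 0, with the group labels of the amino acid plot. SLC43A3 is lower in every treated group than in its control, and SLCO4A1 is highest with BRD siRNA mix B and lowest after JQ1.

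Phosphate and bicarbonate carriers differed by treatment. SLC20A1 (PiT1), the main sodium-coupled phosphate importer, had 1340 and 1338 with YAP/TAZ mix 1 and 669 and 683 with mix 2, against 475 and 471 with control siRNA (1.01 (SE 0.0456, adjusted p = 2.51e-14)). All 4 knockdown libraries lay above both controls, with the larger rise in mix 1 (1.50, against 0.51 with mix 2). After BRD siRNA it was at 331 and 312 with mix A and 586 and 570.3 with mix B, below and above the controls. After JQ1 it was at 306 and 296, against 370.0 and 374 in DMSO (-0.30 (SE 0.0527, adjusted p = 2.56e-05)). Its relative SLC20A2 (PiT2) was lower in each comparison (-0.70, -1.03 and -0.43). SLC4A7 (NBCn1), which brings in sodium and bicarbonate and so alkalinises the cell, had 176 and 169 with BRD mix A and 275 and 251 with mix B, against 97.8 and 88.1 with control siRNA (1.19 (SE 0.0578, adjusted p = 1.2e-13)). JQ1 moved it the other way, to 99.8 and 110.0, against 146 and 149 in DMSO (-0.49 (SE 0.0667, adjusted p = 1.17e-06)). SLC34A3, a sodium-phosphate importer best known from the kidney, had 3.65 and 4.78 after JQ1, against 0.13 and 0.221 in DMSO (2.14 (SE 0.191, adjusted p = 2.07e-09)), at levels that rest on few reads in DMSO.

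Among carriers of sodium, protons and chloride, SLC12A7 (KCC4), a potassium-chloride exporter, had 21.5 and 22.9 with YAP/TAZ mix 1 and 20.1 and 20.4 with mix 2, against 6.5 and 7.83 with control siRNA (1.45 (SE 0.0935, adjusted p = 9.18e-12)). It was lower after BRD siRNA (-0.64) and JQ1 (-0.72). SLC12A2 (NKCC1), a sodium-potassium-chloride importer, had 135 and 145 after JQ1, against 96.3 and 93.8 in DMSO (0.55 (SE 0.0625, adjusted p = 7.9e-08)). Its YAP/TAZ effect of 0.15 came with mix 1 (0.38), where mix 2 alone gave -0.09. SLC8B1 (NCLX), which lets calcium out of mitochondria in exchange for sodium, had 101 and 99.8 after JQ1, against 50.4 and 54.3 in DMSO (0.93 (SE 0.062, adjusted p = 2.08e-11)).

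The mitochondrial SLC25 family, whose members carry nucleotides, phosphate, metabolites and cofactors across the inner membrane, was the largest class. SLC25A24, an ATP-magnesium and phosphate exchanger controlled by calcium, had 73.1 and 73.9 with YAP/TAZ mix 1 and 45.3 in both libraries with mix 2, against 299.6 and 279 with control siRNA (-2.30 (SE 0.0478, adjusted p = 1.66e-19)), the largest fall of a member in that comparison. It was also lower after BRD siRNA, at 132 and 140.1 with mix A and 168 and 166 with mix B (-0.93 (SE 0.0478, adjusted p = 2.7e-13)). After JQ1 it had 150.5 and 148, against 312 and 293 in DMSO (-1.01 (SE 0.0552, adjusted p = 7.68e-13)), and treated and control libraries did not overlap in any of the 3 comparisons. The abundant ADP/ATP carrier SLC25A5 had 318 and 331 with YAP/TAZ mix 1 and 190.1 and 215 with mix 2, against 531 and 516 with control siRNA (-1.03 (SE 0.0564, adjusted p = 5.68e-13)). Near-identical copies and an antisense gene of SLC25A5 make its level uncertain. The phosphate carrier SLC25A3 fell more with mix 1 (314 and 317) than with mix 2 (627 and 687), against 779.7 and 809 with control siRNA (-0.80 (SE 0.0555, adjusted p = 2.76e-11)). Its changes after BRD siRNA (0.10) and JQ1 (-0.02) did not pass the test.

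Further members of the same family fell. SLC25A32, which brings folate into mitochondria, had 57 and 53.9 with YAP/TAZ mix 1 and 21.3 and 22.4 with mix 2, against 118 and 105 with control siRNA (-1.64 (SE 0.0576, adjusted p = 4.01e-16)). It was lower after BRD siRNA (-0.80) and JQ1 (-1.04). The ornithine carrier SLC25A15 had 25.5 in both libraries with mix 1 and 8.92 and 8.03 with mix 2, against 45.2 and 44.8 (-1.54 (SE 0.0663, adjusted p = 1.11e-14)). The aspartate-glutamate carrier SLC25A13 (citrin) fell most after JQ1, to 23.3 and 23.8, against 64 and 61.3 in DMSO (-1.37 (SE 0.062, adjusted p = 3.7e-14)). Other members rose. SLC25A1, which exports citrate for fatty acid synthesis, had 107 and 132 with YAP/TAZ mix 1 and 102 and 96.4 with mix 2, against 42 and 48.1 with control siRNA (1.25 (SE 0.0727, adjusted p = 1.52e-12)). JQ1-treated cells had 112 and 101, against 43.1 and 45.8 in DMSO (1.25 (SE 0.0839, adjusted p = 2.39e-11)). SLC25A42, a coenzyme A carrier, had 25.8 and 24.4 after JQ1, against 6.81 and 7.48 in DMSO (1.68 (SE 0.104, adjusted p = 6.25e-12)). The iron importer SLC25A37 (mitoferrin-1) rose with both knockdowns (0.99 and 1.12 for YAP/TAZ and BRD siRNA). SLC25A39, a glutathione carrier, was lower after YAP/TAZ siRNA (-0.44) and higher after BRD siRNA (0.73) and JQ1 (0.72).

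Of the metal carriers, the zinc and manganese importer SLC39A8 (ZIP8) had 23.1 and 26.3 with BRD mix A and 24.7 and 24.6 with mix B, against 68.9 and 63.4 with control siRNA (-1.39 (SE 0.0701, adjusted p = 2.19e-13)). JQ1 treatment gave 31.2 and 33, against 75.5 and 64.1 in DMSO (-1.09 (SE 0.081, adjusted p = 1.07e-10)). Its relative SLC39A14 (ZIP14) was lower in each comparison (-0.85, -0.75 and -0.60). Zinc exporters of the SLC30 family differed from one another. SLC30A1 (ZnT1), at the plasma membrane, had 57.9 and 59.9 with YAP/TAZ mix 1 and 60.3 and 63.6 with mix 2, against 31.6 and 30.9 with control siRNA (0.93 (SE 0.0631, adjusted p = 2.08e-11)). SLC30A9, in mitochondria, rose most after BRD siRNA, to 212 and 242 with mix A and 237 and 244 with mix B, against 107 and 92.3 (1.22 (SE 0.058, adjusted p = 7.87e-14)). SLC30A4 (ZnT4), in vesicles, had 13.3 and 13.9 after JQ1, against 5.58 and 4.78 in DMSO (1.25 (SE 0.126, adjusted p = 1.54e-08)). It was lower after YAP/TAZ siRNA (-0.63) and BRD siRNA (-0.76). SLC40A1 (ferroportin), the iron exporter of the plasma membrane, had 14.7 and 12.7 with YAP/TAZ mix 1 and 22 in both libraries with mix 2, against 5.92 and 5.54 with control siRNA (1.45 (SE 0.0871, adjusted p = 2.77e-12)). With JQ1 the values were 9.47 and 9.94, against 3.44 and 3.7 in DMSO (1.23 (SE 0.101, adjusted p = 5.48e-10)). BRD mix A and mix B lay on opposite sides of the controls for SLC40A1, at 3.27 and 3.33 and 8.74 and 8.61.

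The vitamin carriers were few and fell more often than they rose. SLC5A6, which imports biotin and pantothenate, had 23.6 and 24.4 with YAP/TAZ mix 1, 17.8 and 18.4 with mix 2, 38.8 and 39.1 with BRD mix A and 36.3 and 37.6 with mix B, against 63.2 and 68.3 with control siRNA (-1.61 (SE 0.0566) and -0.78 (SE 0.0566)). After JQ1 it had 31.3 and 30.5, against 78.4 and 76.3 in DMSO (-1.30 (SE 0.0654, adjusted p = 2.19e-13)). No treated library reached its controls. The thiamine importer SLC19A2 was lower in each comparison (-0.78, -1.18 and -0.37). The folate importer SLC46A1 was lower after YAP/TAZ siRNA (-0.81) and BRD siRNA (-1.23) and higher after JQ1 (0.31).

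Among carriers of nucleosides and nucleobases, SLC43A3 (ENBT1), which imports purine bases, changed most. It had 40.1 and 39.4 after JQ1, against 279 and 269.5 in DMSO (-2.76 (SE 0.0552, adjusted p = 3.37e-19)). It also had 109.6 and 111 with YAP/TAZ mix 1, 55.9 in both libraries with mix 2, 96.4 and 98.3 with BRD mix A and 48.6 and 52 with mix B, against 206 and 196 with control siRNA (-1.34 (SE 0.0478) and -1.51 (SE 0.0478)). Every treated library lay below its controls. SLC29A1 (ENT1), the main equilibrative nucleoside carrier of the plasma membrane, had 88.5 and 82 after JQ1, against 173 and 176 in DMSO (-1.03 (SE 0.063, adjusted p = 5.23e-12)). Its mean YAP/TAZ effect was 0.00 (SE 0.0546, adjusted p = 0.994), made of 162 and 166 with mix 1 and 75.4 and 78.3 with mix 2, on both sides of 108 and 116 with control siRNA. The SLC35 family, most of whose known members carry nucleotide sugars into the endoplasmic reticulum and Golgi, had 14 members higher and 9 lower of 24 after YAP/TAZ siRNA, 11 and 7 after BRD siRNA, and 13 and 7 after JQ1, beside 43.1% and 35.9%, 37.6% and 37.6%, and 37.6% and 36.3% of all genes. With YAP/TAZ mix 2 alone 10 were higher and 12 lower. SLC35F2 had 65.3 and 63 with YAP/TAZ mix 1 and 18 and 17.6 with mix 2, against 95.1 and 83.8 with control siRNA (-1.37 (SE 0.0552, adjusted p = 3.89e-15)). JQ1 libraries had 53.4 and 51.6, against 137 and 129 in DMSO (-1.32 (SE 0.0638, adjusted p = 1.03e-13)). SLC35G1 was lower in each comparison (-1.78, -1.80 and -1.29). SLC35E2 was higher in each (0.89, 1.55 and 0.99), but SLC35E2 and SLC35E2B are near-identical copies whose reads could be split.

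Carriers of organic ions included genes near 0 in most groups. SLC47A2 (MATE2), a proton-coupled exporter of organic cations, had 2.06 and 2.21 with YAP/TAZ mix 1 and 8.28 and 7.75 with mix 2, against 0.0533 and 0 with control siRNA, where a single read was seen in 1 library. It had 0 in the other 8 libraries. The urea channel SLC14A1 (UT-B) had 27.4 and 24.2 with mix 1 and 11.8 and 11.6 with mix 2, against 0.799 and 0.782 with control siRNA. Its log2 fold change of 3.36 was the largest upward of a member in that comparison, on the scale with 1 added. That addition shrinks rises from near 0, such as that of SLC47A2, more than others. SLC14A1 reached the floor of 1 scaled RPM only in the YAP/TAZ siRNA libraries, so its p-value is not given. SLC22A18, an organic cation carrier, was higher in each comparison, at 8.66 and 10.4 with YAP/TAZ mix 1 and 21.8 and 22.2 with mix 2, against 1.71 and 2.77 with control siRNA (2.28 (SE 0.116, adjusted p = 1.75e-13)), and at 4.53 and 3.9 after JQ1, against 0.908 and 0.994 in DMSO (1.42 (SE 0.134, adjusted p = 5.66e-09)). SLCO1B3 (OATP1B3), an organic anion importer best known from the liver, was lower in each (-0.74, -0.99 and -1.29). Its near-identical neighbours SLCO1B1 and SLCO1B7 could share its reads. The fatty acid importer SLC27A1 (FATP1) rose in each comparison. It had 53.3 and 58.1 with YAP/TAZ mix 1 and 104 and 97.9 with mix 2, against 17.3 and 17.6 with control siRNA (2.04 (SE 0.0713, adjusted p = 3.75e-16)), and its change was 0.96 after BRD siRNA and 1.46 after JQ1. The creatine importer SLC6A8 rose after JQ1 to 28.7 and 27, against 2.63 and 2.98 in DMSO (2.92 (SE 0.121, adjusted p = 9.22e-15)). That was the largest upward log2 fold change of a member there on the scale with 1 added, which shrinks rises from near 0 such as that of SLC34A3. Copies of SLC6A8 elsewhere in the genome could share its reads. The taurine importer SLC6A6 had 320.0 and 307 with BRD mix A and 267 and 247 with mix B, against 102 and 112 with control siRNA (1.40 (SE 0.0509, adjusted p = 1.07e-15)). After JQ1 it had 85.1 and 83.6, against 77.2 and 82 in DMSO (0.08 (SE 0.0588, adjusted p = 0.206)).

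The symbol rule also takes genes that are not carriers. SLC9A3R1 (NHERF1) and SLC9A3R2 (NHERF2) are scaffold proteins that tether exchangers and receptors beneath the membrane. SLC9A3R1 had 205 and 226 with YAP/TAZ mix 1 and 198 and 193 with mix 2, against 41.4 and 45.3 with control siRNA (2.22 (SE 0.0556, adjusted p = 2.26e-18)). Its change was smaller after BRD siRNA (0.82 (SE 0.0556)) and JQ1 (1.26 (SE 0.0642)). SLC9A3R2 had 729 and 691 with BRD mix A and 469 and 475 with mix B, against 112 and 143 with control siRNA (2.18 (SE 0.0732, adjusted p = 3.35e-16)), the largest rise of a member in that comparison. With JQ1 the values were 247 and 218, against 107 and 108 in DMSO (1.11 (SE 0.0845, adjusted p = 1.76e-10)). Its change after YAP/TAZ siRNA was -0.12 with mix 1 and 0.52 with mix 2.

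The 2 YAP/TAZ siRNA mixes, which aim at the same pair of genes, gave different carrier profiles. Between them, 108 members were higher with mix 1 and 53 lower, which is 48% and 23.6% of the members, against 30.9% and 34.8% of all genes. At 2-fold or more 32 members were higher with mix 1 (14.2%, against 5.19% of all genes) and 10 lower (4.44%, against 4.19%). The median member differed by 0.17, against -0.03 for all genes. The summed level of all members was 13891 and 14075 scaled RPM with mix 1 and 10056 and 10235 with mix 2. The control siRNA libraries summed to 11760 and 11860. The metal carriers (18 higher and 4 lower of 26), the nucleotide sugar carriers (15 and 2 of 24) and the sugar carriers (10 and 2 of 15) stood mostly on the mix 1 side, and the carriers of choline, carnitine and fatty acids (2 and 5 of 9) did not. SLC5A3 differed most (3.21 (SE 0.0817, adjusted p = 9.69e-18)). The magnesium carrier SLC41A2 came next (2.20 (SE 0.0799, adjusted p = 2.04e-15)), at 41.1 and 38.2 with mix 1 and 7.69 and 7.99 with mix 2, and then SLC16A7 (1.90 (SE 0.0886, adjusted p = 1.13e-13)). SLC16A6 differed most the other way (-3.08 (SE 0.143, adjusted p = 1.12e-13)). The choline carrier SLC44A1 was also lower with mix 1 (-1.33 (SE 0.066, adjusted p = 3.1e-13)), at 41.4 and 40.2 with mix 1 and 104 in both libraries with mix 2. SLC31A1 (CTR1), the main copper importer, was on the mix 1 side, with 127 and 128 with mix 1 and 38.6 and 39.9 with mix 2, on both sides of 75.2 and 72.1 with control siRNA (1.68 (SE 0.0624, adjusted p = 2.94e-15)). Class counts against control siRNA therefore depended on the mix. The metal carriers had 15 higher and 4 lower with mix 1 alone (median 0.32), where 40.6% of all genes were higher and 33.6% lower. With mix 2 alone they had 6 higher and 18 lower (median -0.46), where 42.7% of all genes were higher and 35.7% lower. The median of the amino acid carriers was 0.09 with mix 1 alone, and that of the nucleotide sugar carriers was -0.08 with mix 2 alone.

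Fewer members were called between the 2 BRD siRNA mixes. With mix A 70 members were higher and 57 lower than with mix B, against 25.7% and 24.3% of all genes, and 5 members were at least 2-fold higher (2.22%, against 1.95% of all genes) and 5 at least 2-fold lower (2.22%, against 1.57%). SLC38A4 (SNAT4), an amino acid importer, had 49.1 and 54.5 with mix A and 15 and 13.8 with mix B (1.78 (SE 0.0919, adjusted p = 1.71e-12)). SLC7A11 differed most the other way (-2.05 (SE 0.0873, adjusted p = 8.08e-14)).

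**Figure D4:**
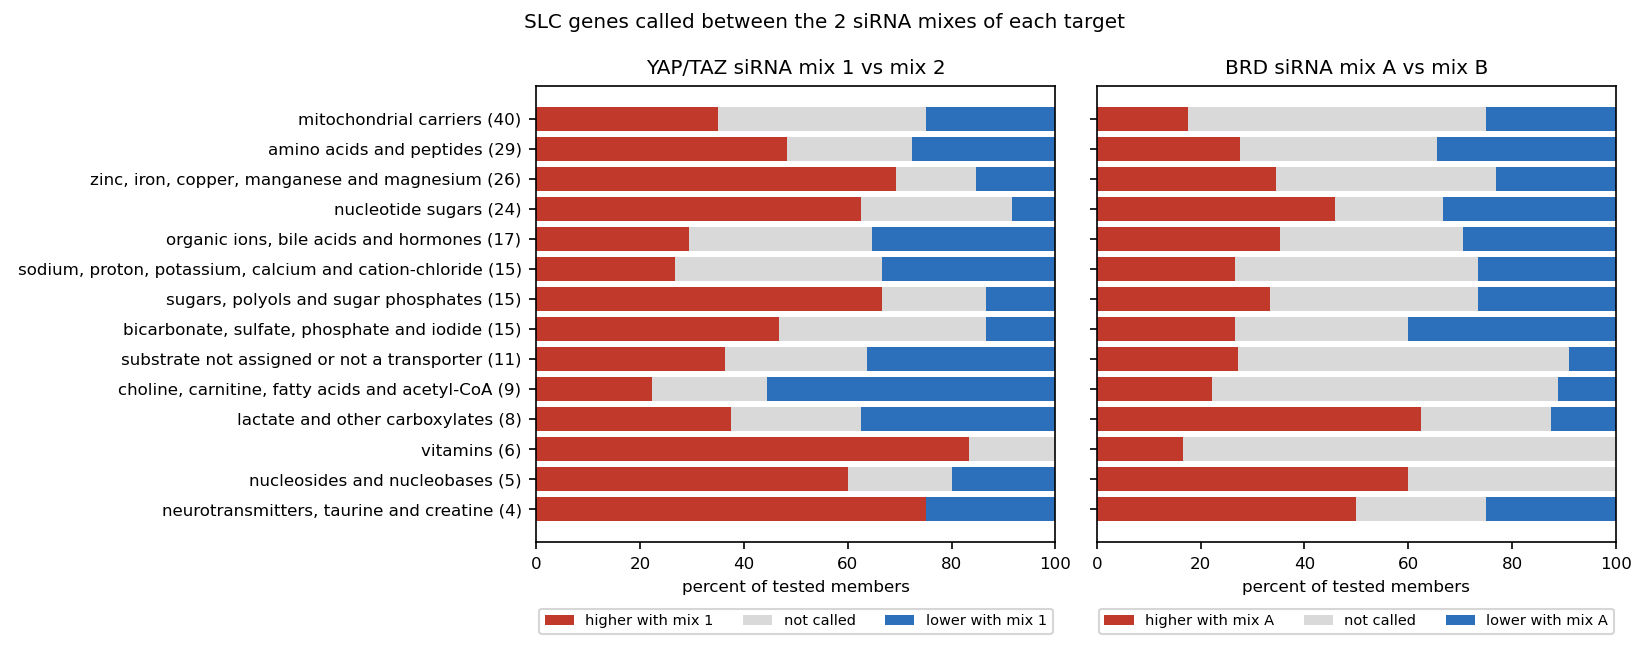
Percent of tested members of each substrate class (bars, number tested in brackets, the class of 1 gene left out) that were called higher, not called or called lower between the 2 siRNA mixes of each target, for YAP/TAZ siRNA on the left and BRD siRNA on the right. The metal carriers were called higher with YAP/TAZ mix 1 in 18 of 26 cases and lower in 4.

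JQ1 and BRD siRNA act on the same proteins by different means, at 24 h and 72 h, and their comparisons share no control libraries. Of the 69 members higher after BRD siRNA 52 were also higher after JQ1 (75.4% of the BRD list and 54.2% of the JQ1 list), where all genes gave 64.3% and 64.4%. Of the 91 members lower after BRD siRNA 44 were lower after JQ1 (48.4% of the BRD list and 60.3% of the JQ1 list), where all genes gave 64.1% and 66.3%. Another 22 were higher after JQ1 (24.2%, against 15% of all genes). The JQ1 effect minus the BRD siRNA effect was above 0 for 92 members and below 0 for 61, against 30.2% and 29.9% of all genes. SLC1A4 (2.42 (SE 0.158, adjusted p = 6.9e-11)), SLC34A3 (2.40 (SE 0.252)), SLC6A8 (2.24 (SE 0.16)), SLC43A2 (2.23 (SE 0.18)) and SLC7A5 (1.62 (SE 0.0816)) were further up after JQ1. SLCO4A1 (OATP4A1), an importer of organic anions that include thyroid hormones, differed most of all members, by -4.36 (SE 0.13, adjusted p = 7.8e-16). It had 6.78 and 4.67 after JQ1, against 51 and 53.5 in DMSO (-3.00 (SE 0.0982, adjusted p = 2.26e-16)). It had 269.8 and 244 with BRD mix A and 396 and 369 with mix B, against 115 and 129 with control siRNA (1.35 (SE 0.0851, adjusted p = 7.51e-12)). It was also higher after YAP/TAZ siRNA (0.68). Every siRNA library, the control siRNA included, lay above the DMSO libraries. SLC22A3 (OCT3), an organic cation carrier, had 3.41 and 4.88 after JQ1, against 12.1 and 12.9 in DMSO (-1.41 (SE 0.12, adjusted p = 1.09e-09)). It had 25.7 and 20.9 with BRD mix A and 12 and 13.4 with mix B, against 12.2 and 12.9 with control siRNA (0.43 (SE 0.104, adjusted p = 0.000948)). SLC4A7 (-1.68 (SE 0.0882)) and SLC6A6 (-1.32 (SE 0.0778)) were likewise further down after JQ1.

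**Figure D5:**
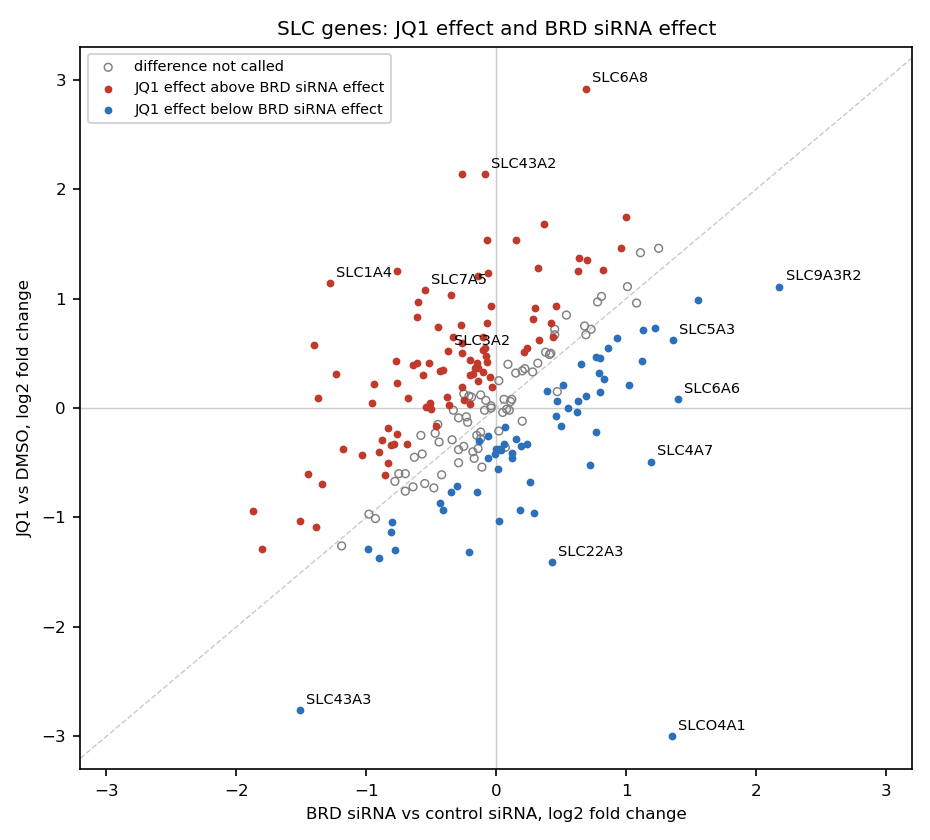
Log2 fold change after JQ1 against DMSO (vertical) and after BRD siRNA against control siRNA (horizontal) for the 225 tested members, 1 point a gene, with the line of equal effects dashed; red points have a JQ1 effect called above the BRD siRNA effect, blue points one called below it, and open points no called difference. SLCO4A1 lies at 1.35 on the BRD siRNA axis and -3.00 on the JQ1 axis.

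The 2 control groups differed too. With control siRNA 65 members were higher and 60 lower than in DMSO, against 25.4% and 28.7% of all genes, and 8 members were at least 2-fold higher (3.56%, against 2.55%) and 0 at least 2-fold lower, against 0.775% of all genes. The 8 were SLC2A12, SLC2A3, SLC4A11, SLCO4A1, SLC16A5, SLC37A2, SLC15A3 and SLC6A9. SLC2A12 (GLUT12) averaged 11 with control siRNA and 1.97 in DMSO (2.02 (SE 0.107, adjusted p = 4.65e-12)). SLC2A3 averaged 31.2 with control siRNA and 8.59 in DMSO (1.75 (SE 0.0776, adjusted p = 3.52e-13)). Transfection differs between these groups as well as the agent, and culture time may differ, since neither harvest time is in the labels. The parts of these cannot be told apart.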

How the data were processed

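Stranded total RNA libraries of MDA-MB-231 cells were depleted of ribosomal RNA, per the labels' protocols. Per the submitters' processing notes, the tools included TopHat2 2.0.5, HTSeq 0.6.0 and edgeR, besides CASAVA 1.8.4 and R 3.0.0, and the build was hg19. The sources used here give neither the annotation nor the strand setting. The deposited table is named for CPM, but its columns summed to 903627 to 1098052, so the authors' values were treated as a scaled signal (scaled RPM), and the planned test was kept. Within each column 100% of values were whole multiples of 1 step at a tolerance of 0.01, which gave whole reads. Sample titles gave the groups and the replicate numbers.

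Values were taken as log2(value + 1) for the 13674 genes at 1 or more in 2 or more libraries. A single limma 3.58.1 model (R 4.3.3) with a term for each group and a variance trend was fitted to all 14 libraries, with 7 residual and 13.2 prior degrees of freedom. P-values are two-sided and adjusted by Benjamini-Hochberg over all genes tested. YAP/TAZ and BRD siRNA effects are means over the 2 mixes. The main model did not pair samples by replicate number, and replicates of a group differed by more than sampling noise (chi-square per gene 3.45 to 10.6). Alternatives were pseudocounts of 0.25 and 4, other filters, 2 other scalings, no variance trend, a replicate block, edgeR 4.0.16 and DESeq2 1.42.0 on the recovered reads, the libraries of a comparison only, single mixes, DMSO as control and each library left out.

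The members, their classes and the other lists were chosen with earlier results of these data known. The genes named were 20 of 22 listed genes found in the table, the 8 largest rises and falls of each comparison with a mean of at least 5, the strongest call of each class, up to 6 genes called the same way each way, and the largest differences between mixes and between the JQ1 and BRD effects. SLC2A12, SLC7A6, SLC15A3, SLC16A5, SLC20A2, SLC25A1, SLC25A3, SLC25A37, SLC25A39, SLC31A1, SLC37A4, SLC39A7, SLC39A14 and SLC4A11 were named after their values were seen. Some genes that the rule takes are not reported here.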

Additional observations from a re-analysis of the deposited data

How the results depend on the processing

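No count of members called higher or lower moved by over 1.5 times under any alternative run. With 1 library left out, the counts of members called higher and lower ranged from 96 to 105 and 70 to 76 after YAP/TAZ siRNA, 66 to 72 and 87 to 96 after BRD siRNA, 91 to 95 and 65 to 68 after JQ1, 53 to 63 and 41 to 50 for control siRNA against DMSO, 98 to 104 and 48 to 50 for YAP/TAZ mix 1 against mix 2, 59 to 65 and 48 to 55 for BRD mix A against mix B, and 83 to 96 and 49 to 61 for the JQ1 effect minus the BRD effect. A lone library left in a group is assumed there to vary like the others. The difference between replicate 1 and replicate 2 of a group was correlated over genes with that of each other group. This correlation was above 0.1 in 7 of 21 pairs of groups (-0.37 to 0.25). Whether same-numbered replicates of some groups were handled together is not known. The replicate block gave 105 members higher and 74 lower after YAP/TAZ siRNA, 69 and 91 after BRD siRNA and 97 and 73 after JQ1. DESeq2 called 88 members higher and 75 lower after YAP/TAZ siRNA, and edgeR 101 and 73.

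The direction of some called log2 fold changes of named genes depended on the mix or the control. It turned in 24 cases, and a gene that turned under more than 1 setting is counted for each. After YAP/TAZ siRNA, mix 1 alone gave 0.00 for SLC2A13, 0.24 for SLC38A1, 0.09 for SLC38A4, 0.05 for SLC39A10, 0.55 for SLC41A2, 0.49 for SLC46A3 and -0.12 for SLC9A3R2. Mix 2 alone gave -0.09 for SLC12A2, -0.33 for SLC38A2 and 0.36 for SLC44A1, and DMSO as control gave -0.01 for SLC12A2, 0.31 for SLC38A4 and 0.41 for SLC46A3. After BRD siRNA, mix A alone gave 0.25 for SLC2A1 and -0.27 for SLC7A2. Mix B alone gave 0.29 for SLC20A1, -0.26 for SLC2A13, 0.04 for SLC30A1, 0.05 for SLC3A2, 0.48 for SLC7A11 and 0.17 for SLC9A8, and DMSO as control gave 0.21 for SLC20A1, 0.08 for SLC30A1 and -0.68 for SLC7A2. The cause was not tested. No other setting turned the direction of a called value. Means that were not called hid mixes called on opposite sides for 6 named genes after YAP/TAZ siRNA (SLC12A4, SLC29A1, SLC4A7, SLC5A3, SLC6A8 and SLC7A11) and 4 after BRD siRNA (SLC2A3, SLC40A1, SLC6A9 and SLC8B1). Genes with fewer than 10 reads in some library (25 members) have the least certain fold changes.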
